A study of Mus musculus with 12 samples.

Results

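The HoxD cluster is a run of 9 homeobox genes on mouse chromosome 2 (Hoxd1, Hoxd3, Hoxd4, Hoxd8, Hoxd9, Hoxd10, Hoxd11, Hoxd12 and Hoxd13). They were followed in embryonic limbs that carried or lacked Lmx1b, a LIM homeodomain gene by which limb mesenchyme becomes dorsal. Members were taken by gene symbol from the array annotation, without regard to their levels. The 9 genes were read by 12 probe sets, of 18193 genes with a probe set of their own and 45037 probe sets in all. Of the 12 probe sets, 10 named 1 HoxD gene and 2 named both Hoxd3 and Hoxd4, so 8 genes had a probe set of their own and Hoxd4 had none. Hoxd8 and Hoxd13 were each read by 2. All values are log2 expression values, and a level of one probe set cannot be set against that of another.

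The embryos were Lmx1b -/- (KO) or Lmx1b +/+ (WT), both labelled C57BL/6, at 11.5, 12.5 and 13.5 days post coitum (dpc). The 6 groups had 2 arrays apiece, made from RNA pooled over several limbs, and the series text says that the duplicates came from different embryos. The number of limbs per pool differs between the series text and the labels' extraction protocol and was not settled here. Limb buds with their girdle were taken at 11.5 and 12.5 dpc, but at 13.5 dpc the labels name the handplate and the series text the distal limb with zeugopod and autopod, that is forearm or shank with hand or foot. The labels give both alleles as null in the embryo, and not how the allele was made. Each stage was also its own scan series, so stage, scan series and dissected part cannot be told apart between 12.5 and 13.5 dpc, whereas both genotypes were present in every scan series. In these pooled tissues fewer cells of a type and less RNA per cell cannot be told apart.

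HOX proteins are homeodomain transcription factors that give cells their position along the body and the limb. The genes of a cluster are switched on in the order in which they lie, with Hoxd1 at the 3′ end and Hoxd13 at the 5′ end. In the mouse limb HoxD is transcribed in an early phase, which covers the future upper arm and forearm, and in a late phase, which covers the hand and foot. Regulatory landscapes on opposite sides of the cluster drive the phases, and Hoxd13 is the most strongly transcribed member in the digits.

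Some facts of the libraries bear on every value below. Lmx1b itself, on its brighter probe set 1441729_at, lay at 5.60 and 5.72 in KO and 9.28 and 9.64 in WT limbs at 11.5 dpc, and at 6.50 and 7.02 in KO and 9.29 and 9.55 in WT limbs at 12.5 dpc. At 13.5 dpc it lay at 7.48 and 8.88 in KO and 10.27 and 10.19 in WT limbs. On this probe set all KO arrays were thus below all WT arrays of their stage, with KO replicate 2 of 13.5 dpc nearest to WT. The other Lmx1b probe set, 1421769_at, lay between 5.46 and 5.98 on all arrays, and its genotypes overlapped at 12.5 and 13.5 dpc. Whether KO replicate 2 of 13.5 dpc differed in genotype or in dissection was not tested, which bears on every KO value of 13.5 dpc. The sources used here do not say whether the probes lie in a deleted stretch. Prrx1, a marker of limb mesenchyme, stayed between 12.14 and 12.56 on all 12 arrays. Some other genes of the 9-gene mesenchyme list moved, among them Msx1, which ran between 10.64 and 12.13. At 13.5 dpc Msx1 lay at 11.78 and 11.21 in KO and 12.11 and 12.13 in WT limbs. KO minus WT there was negative for 7 of the 9 genes, Lmx1b among them, and positive for 2. None of the 9 passed the test described below at that stage, where 0.0178% of all probe sets passed. Pitx1, a hindlimb gene, lay between 5.76 and 6.28 at the first stages, against 9.88 and 10.30 in KO and 10.17 and 10.06 in WT limbs at 13.5 dpc, so this marker of limb type moved with stage as well. KO replicate 2 of 12.5 dpc stood apart by Hspa1a, a heat shock gene, at 9.36 against 4.80 to 5.71 on the other arrays. KO replicate 2 of 13.5 dpc stood apart by some genes of the proximal limb and by an embryonic globin, and its values are given beside the results it touches.

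The 5′ flanks of 4 members are shown here. Hoxd8 and Hoxd9 are the genes called in both genotypes between 12.5 and 13.5 dpc, Hoxd13 is the digit gene at the 5′ end, and Hoxd11 is the gene whose promoters hold the homeodomain motif. They run from 250 bases before to 50 bases after the gene start (RefSeq, build GRCm38.p6, plus strand). Capitals mark the homeodomain motif TAATTA and the PBX-HOX motif TGATTNAT.
Hoxd8 (chr2:74704365-74704664): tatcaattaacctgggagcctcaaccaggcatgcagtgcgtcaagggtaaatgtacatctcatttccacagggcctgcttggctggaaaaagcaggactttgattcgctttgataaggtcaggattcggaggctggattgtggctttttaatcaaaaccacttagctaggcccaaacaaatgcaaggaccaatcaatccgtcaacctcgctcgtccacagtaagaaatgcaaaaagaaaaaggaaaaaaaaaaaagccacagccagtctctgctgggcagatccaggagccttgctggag
Hoxd9 (chr2:74697513-74697812): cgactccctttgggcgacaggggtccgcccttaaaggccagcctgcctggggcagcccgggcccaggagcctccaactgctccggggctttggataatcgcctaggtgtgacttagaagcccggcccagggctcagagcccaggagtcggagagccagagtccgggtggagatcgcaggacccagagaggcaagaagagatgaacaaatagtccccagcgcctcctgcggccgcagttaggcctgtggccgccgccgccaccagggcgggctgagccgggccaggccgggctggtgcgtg
Hoxd11 (chr2:74682073-74682372): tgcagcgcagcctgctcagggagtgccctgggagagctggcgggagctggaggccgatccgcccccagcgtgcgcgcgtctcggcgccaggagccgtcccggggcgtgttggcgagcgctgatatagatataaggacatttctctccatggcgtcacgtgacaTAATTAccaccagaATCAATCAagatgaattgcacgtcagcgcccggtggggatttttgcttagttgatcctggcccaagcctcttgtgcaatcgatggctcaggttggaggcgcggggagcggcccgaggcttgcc
Hoxd13 (chr2:74667975-74668274): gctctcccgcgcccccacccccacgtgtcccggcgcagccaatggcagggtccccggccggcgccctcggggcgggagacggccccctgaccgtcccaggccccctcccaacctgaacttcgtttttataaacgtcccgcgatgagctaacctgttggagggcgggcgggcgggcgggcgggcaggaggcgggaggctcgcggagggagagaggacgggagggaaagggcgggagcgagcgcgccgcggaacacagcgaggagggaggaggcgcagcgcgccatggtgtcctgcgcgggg

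RefSeq entries were matched for all 9 genes, as 10 promoters, since Hoxd11 has 2 starts. They were searched on both strands for TAATTA, which 5.29% of 32851 mouse promoters of this length hold, for TGATTNAT (3.22%) and for CAATAAA (4.6%), a core bound by posterior HOX proteins. Both Hoxd11 promoters hold TAATTA, the one printed also holds TGATTNAT, and the Hoxd4 promoter holds CAATAAA. None of these letters occurred in the windows of the other 7 genes. CG dinucleotides, the sites of DNA methylation, numbered 37 in the Hoxd13 window, 20 in that of Hoxd9 and 6 in that of Hoxd8, against a median of 7 over all promoters. A match describes letters only, and no binding was measured.

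**Figure D1:**
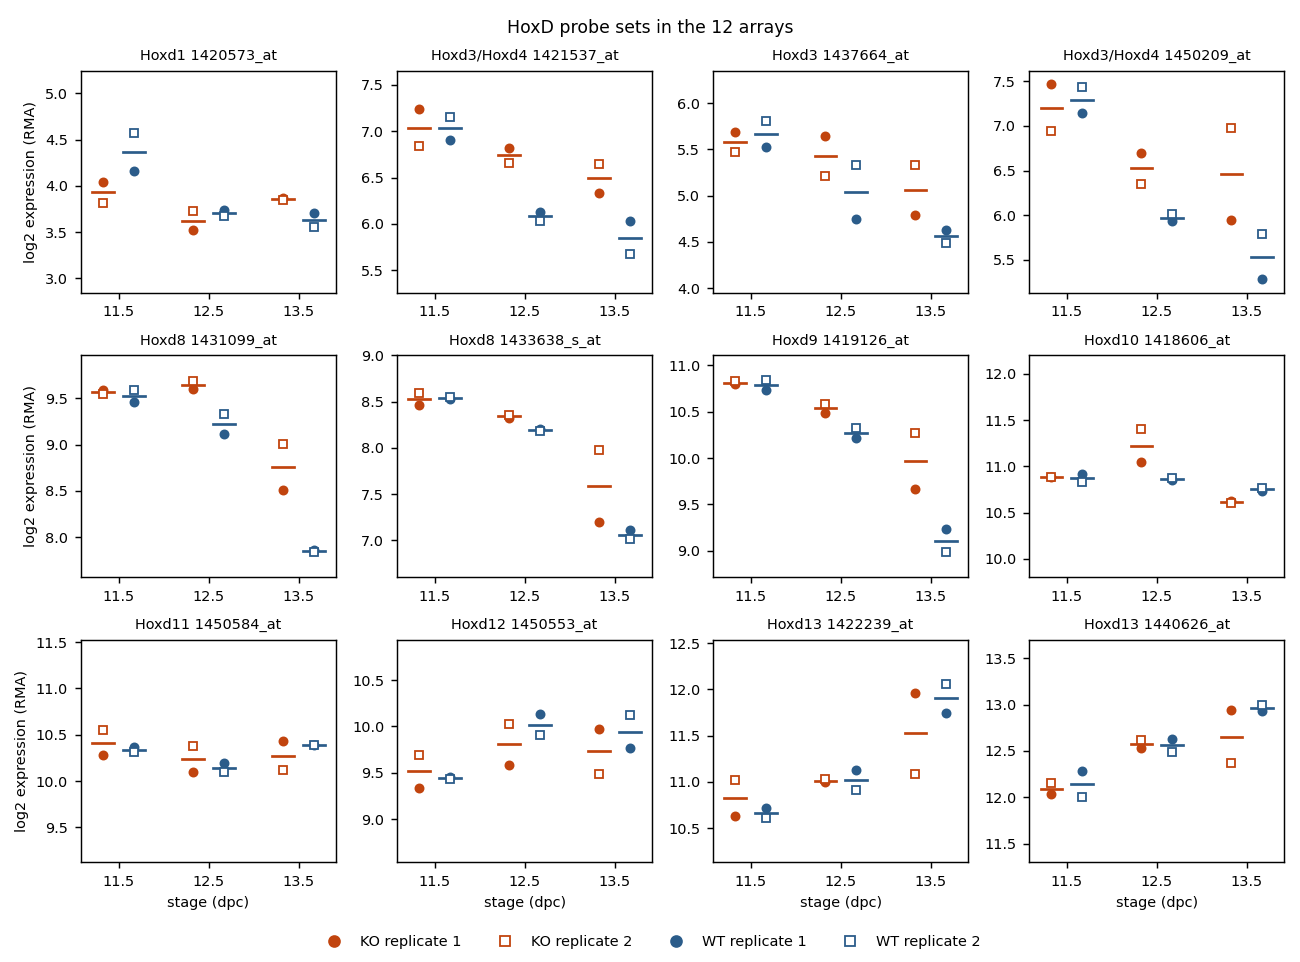
Log2 expression values (vertical axis) of the 12 HoxD probe sets on every array, ordered from the Hoxd1 end to the Hoxd13 end, at 11.5, 12.5 and 13.5 dpc, with KO left of WT at each stage. Filled circles are replicate 1, open squares replicate 2 and lines the means of 2 arrays. Hoxd8 and Hoxd9 are lower at 13.5 than at 12.5 dpc in both genotypes, and the KO replicates of 13.5 dpc lie apart from each other on several probe sets.

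The calls between 11.5 and 12.5 dpc lay at the 3′ end of the cluster, where 2 probe sets were dim. Hoxd1, known in mice for a role in sensory neurons, lay at 4.04 and 3.82 in KO and 4.16 and 4.57 in WT limbs at 11.5 dpc. It lay at 3.52 and 3.73 in KO and 3.74 and 3.67 in WT limbs at 12.5 dpc, and at 3.87 and 3.85 in KO and 3.71 and 3.56 in WT limbs at 13.5 dpc. All 12 values were under the median of all values on the arrays, 6.28, so they lie near background, where changes are compressed. Hoxd3, which helps to shape the upper neck vertebrae, ranged from 4.49 to 5.81 on its own probe set 1437664_at, also under that median. Its group means at the successive stages were 5.58 ± 0.15, 5.43 ± 0.30 and 5.06 ± 0.38 in KO, and 5.66 ± 0.21, 5.04 ± 0.42 and 4.56 ± 0.09 in WT limbs (SD, n = 2).

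Hoxd4, like Hoxd3, is a gene of vertebral identity, and both probe sets that they share had larger early changes in WT limbs than the other members. On 1421537_at the values were 7.24 and 6.84 in KO and 6.91 and 7.15 in WT limbs at 11.5 dpc, 6.82 and 6.66 in KO and 6.13 and 6.03 in WT limbs at 12.5 dpc, and 6.33 and 6.65 in KO and 6.03 and 5.67 in WT limbs at 13.5 dpc. The genotypes overlapped at the first stage, and both KO arrays were above both WT arrays at the later stages. On 1450209_at the values were 7.47 and 6.94 in KO and 7.14 and 7.44 in WT limbs at 11.5 dpc, 6.70 and 6.35 in KO and 5.93 and 6.01 in WT limbs at 12.5 dpc, and 5.95 and 6.98 in KO and 5.28 and 5.79 in WT limbs at 13.5 dpc. The order of genotypes was the same as on the first probe set. Because these probe sets name both genes, neither gene can be given its own share of the signal.

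Between 11.5 and 12.5 dpc, 3 of the 12 HoxD probe sets changed in WT limbs, all of them lower and all from the 3′ end. The change was tested in a limma model over all probe sets with Benjamini-Hochberg adjustment at 0.05. Of all probe sets 8.69% were lower, 7.5% higher and 16.2% called in either direction. The share of members was above the 8.69% called lower and nearer to the 16.2%. The 2 probe sets shared by Hoxd3 and Hoxd4 are not independent. Hoxd1 fell by 0.67 ± 0.14 (SE, adjusted p = 0.0135), 1421537_at fell by 0.95 ± 0.17 (adjusted p = 0.00703) and 1450209_at fell by 1.33 ± 0.31 (adjusted p = 0.0172). These calls rest on few arrays. Without WT replicate 2 of 11.5 dpc, Hoxd1 gave -0.46 (adjusted p = 0.123), 1421537_at of Hoxd3 and Hoxd4 -0.83 (adjusted p = 0.0737) and 1450209_at -1.18 (adjusted p = 0.127). Without WT replicate 2 of 12.5 dpc, Hoxd1 gave -0.63 (adjusted p = 0.0571) and 1450209_at -1.37 (adjusted p = 0.0563), and the call on 1450209_at was also lost without WT replicate 1 of 11.5 dpc (-1.48, adjusted p = 0.0534) or of 12.5 dpc (-1.28, adjusted p = 0.0756). In KO limbs no HoxD probe set passed over the same interval with limma, where 17.1% of all probe sets did, and 2 of 12 had an unadjusted p under 0.05, against 31.2% of all probe sets. Hoxd1 differed there by -0.31 (95% interval -0.63 to 0.01), 1421537_at by -0.30 (-0.69 to 0.08) and 1450209_at by -0.68 (-1.36 to 0). The test of the difference between KO and WT changes did not pass for any of the 12 probe sets or any of the 45037 on the array (0%), and its smallest p among members was that of 1421537_at (0.64 ± 0.25, unadjusted p = 0.0253, adjusted p = 0.677). It was the only member with an unadjusted p under 0.05, against 6.97% of all probe sets.

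The middle of the cluster held most of the calls between 12.5 and 13.5 dpc. Hoxd8, a gene of the early limb phase, lay on 1431099_at at 9.59 and 9.55 in KO and 9.46 and 9.59 in WT limbs at 11.5 dpc, 9.60 and 9.69 in KO and 9.11 and 9.33 in WT limbs at 12.5 dpc, and 8.51 and 9.01 in KO and 7.86 and 7.84 in WT limbs at 13.5 dpc. Both genotypes were low at the last stage, with both KO arrays above both WT arrays there and at 12.5 dpc. Its other probe set, 1433638_s_at, gave 8.46 and 8.59 in KO and 8.53 and 8.55 in WT limbs at 11.5 dpc, 8.32 and 8.36 in KO and 8.20 and 8.18 in WT limbs at 12.5 dpc, and 7.20 and 7.98 in KO and 7.11 and 7.01 in WT limbs at 13.5 dpc. Here KO replicate 1 of 13.5 dpc lay close to the WT arrays and replicate 2 well above them. Hoxd9, which with its paralogue Hoxa9 patterns the upper forelimb, gave 10.80 and 10.83 in KO and 10.74 and 10.84 in WT limbs at 11.5 dpc, 10.49 and 10.58 in KO and 10.22 and 10.32 in WT limbs at 12.5 dpc, and 9.67 and 10.27 in KO and 9.23 and 8.98 in WT limbs at 13.5 dpc. As on 1431099_at, the KO arrays were above the WT arrays at 12.5 and 13.5 dpc, and the KO replicates of 13.5 dpc differed by more than those of any other group for this gene.

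In WT limbs 4 of 12 HoxD probe sets changed between 12.5 and 13.5 dpc, 3 lower against 9.39% of all probe sets and 1 higher against 9.62% (19% in either direction). Hoxd8 fell by 1.37 ± 0.15 (limma adjusted p = 0.000856) on 1431099_at and fell by 1.13 ± 0.19 (adjusted p = 0.00414) on 1433638_s_at, that is to 0.386 and 0.455 of the earlier level. Hoxd9 fell by 1.17 ± 0.17 (adjusted p = 0.00212), to 0.445 of the earlier level. These 3 calls were kept under every alternative in which their probe sets were tested. The probe set that rose was 1422239_at of Hoxd13, described below.

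In KO limbs 4 of 12 HoxD probe sets changed over the same interval, all lower, against 9.84% of all probe sets lower, 7.89% higher and 17.7% in either direction. Hoxd8 fell by 0.88 ± 0.15 (adjusted p = 0.00426) and fell by 0.75 ± 0.19 (adjusted p = 0.0247), Hoxd9 fell by 0.56 ± 0.17 (adjusted p = 0.0453) and Hoxd10 fell by 0.61 ± 0.12 (adjusted p = 0.00756). The Hoxd9 call is the least firm, since it was lost under 14 of 20 alternatives, among them leaving out any one array of the 11.5 or 12.5 dpc groups, either WT array of 13.5 dpc or KO replicate 1 of 13.5 dpc (-0.26, adjusted p = 0.267, the farthest of these values from the full fit). Leaving out KO replicate 2 of 13.5 dpc instead gave -0.86 for Hoxd9 (adjusted p = 0.00679) and -1.13 and -1.14 for Hoxd8. The second Hoxd8 probe set was not called without KO replicate 1 of 13.5 dpc (-0.36, adjusted p = 0.0855) or without replicate 1 or 2 of the KO group of 12.5 dpc (-0.77 and -0.73, adjusted p = 0.0534 and 0.0711). The WT and KO changes share no array, and the test of their difference gave 0.49 ± 0.21 for Hoxd8 on 1431099_at (adjusted p = 0.515) and 0.61 ± 0.24 for Hoxd9 (adjusted p = 0.484), so a smaller fall in KO limbs was not shown. No probe set on the array passed that test (0%), and 3 of 12 HoxD probe sets against 9.35% of all had an unadjusted p under 0.05.

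**Figure D2:**
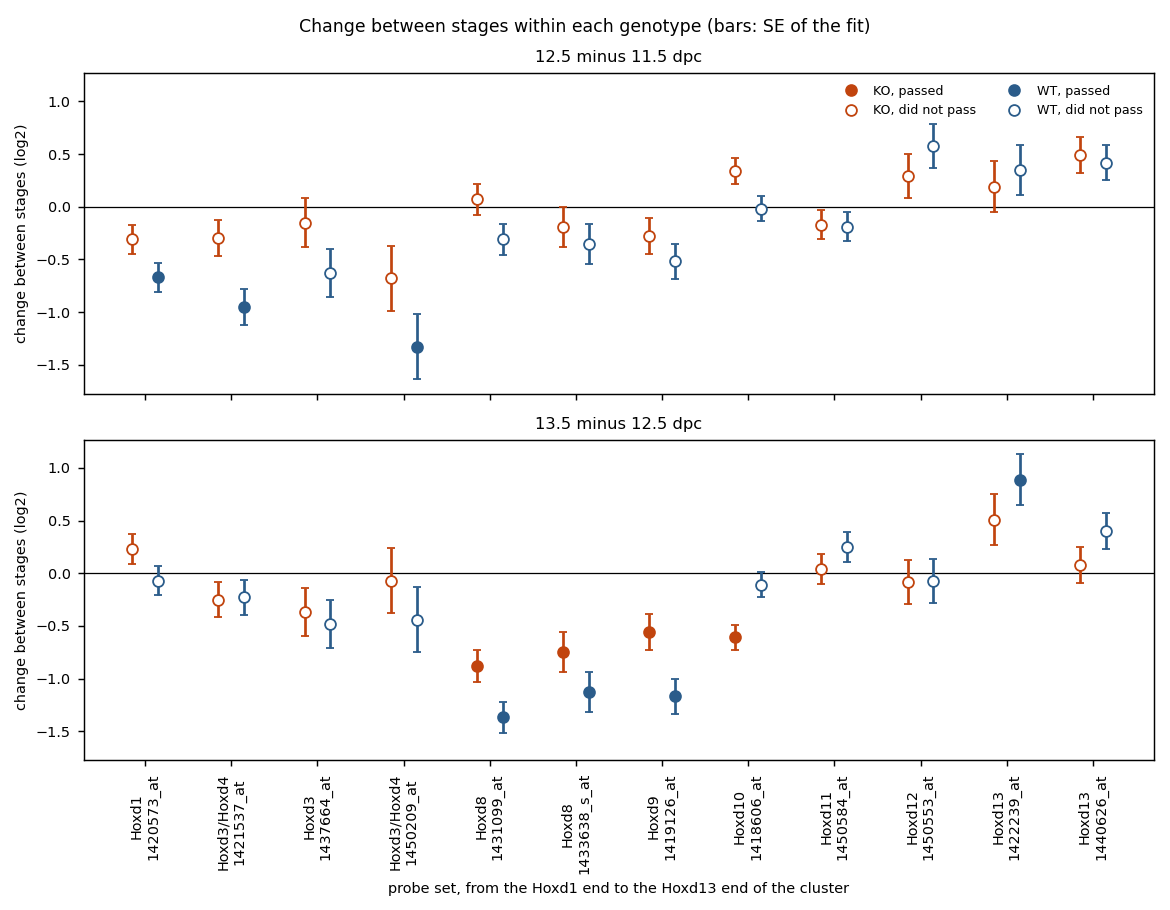
Log2 change between consecutive stages (later minus earlier, vertical axis) of each HoxD probe set, from the Hoxd1 end to the Hoxd13 end, in KO and WT limbs, with bars of 1 SE of the fit and filled points for changes that passed. Between 12.5 and 13.5 dpc Hoxd8 and Hoxd9 passed in both genotypes, at -0.56 to -1.37, and between 11.5 and 12.5 dpc 3 probe sets of the Hoxd1 end passed in WT limbs.

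Hoxd10 and Hoxd11, between the middle and the 5′ end, had no call in WT limbs. Hoxd10, a gene of the upper and lower hindlimb and of lumbar motor neurons, lay at 10.88 and 10.89 in KO and 10.92 and 10.83 in WT limbs at 11.5 dpc, 11.05 and 11.40 in KO and 10.85 and 10.87 in WT limbs at 12.5 dpc, and 10.63 and 10.60 in KO and 10.73 and 10.77 in WT limbs at 13.5 dpc. The WT arrays stayed within a narrow range while the KO arrays of 12.5 dpc were high and those of 13.5 dpc low. Its change between 11.5 and 12.5 dpc was 0.34 ± 0.12 in KO (adjusted p = 0.0751) and -0.02 ± 0.12 in WT limbs (95% interval -0.28 to 0.24). The KO change of Hoxd10 was 0.16 without KO replicate 2 of 12.5 dpc (adjusted p = 0.358) and 0.52 without replicate 1 (adjusted p = 0.0119). Hoxd11, which with Hoxa11 builds the forearm, lay at 10.28 and 10.55 in KO and 10.37 and 10.31 in WT limbs at 11.5 dpc, 10.10 and 10.38 in KO and 10.19 and 10.10 in WT limbs at 12.5 dpc, and 10.43 and 10.12 in KO and 10.39 and 10.39 in WT limbs at 13.5 dpc. Its genotypes overlapped at every stage, and its widest change between consecutive stages was 0.25 (95% interval -0.07 to 0.56, WT limbs, 12.5 to 13.5 dpc).

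The 5′ end held the digit genes. Hoxd12 lay at 9.34 and 9.69 in KO and 9.45 and 9.43 in WT limbs at 11.5 dpc, 9.58 and 10.03 in KO and 10.13 and 9.91 in WT limbs at 12.5 dpc, and 9.97 and 9.49 in KO and 9.77 and 10.12 in WT limbs at 13.5 dpc. Its change of 0.58 ± 0.21 between 11.5 and 12.5 dpc in WT limbs did not pass (95% interval 0.12 to 1.03, adjusted p = 0.0816). Hoxd13, which with Hoxa13 is needed for digits in the mouse and is mutated in human synpolydactyly, lay on 1422239_at at 10.63 and 11.02 in KO and 10.72 and 10.61 in WT limbs at 11.5 dpc, 11 and 11.03 in KO and 11.13 and 10.91 in WT limbs at 12.5 dpc, and 11.96 and 11.09 in KO and 11.75 and 12.06 in WT limbs at 13.5 dpc. Of the arrays of 13.5 dpc, only KO replicate 2 stayed at the 12.5 dpc level. On 1440626_at Hoxd13 lay at 12.03 and 12.15 in KO and 12.28 and 12 in WT limbs at 11.5 dpc, 12.53 and 12.62 in KO and 12.63 and 12.49 in WT limbs at 12.5 dpc, and 12.94 and 12.37 in KO and 12.93 and 13.00 in WT limbs at 13.5 dpc. The same array was again the low one of its stage.

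Hoxd13 rose in WT limbs between 12.5 and 13.5 dpc by 0.89 ± 0.24 on 1422239_at (adjusted p = 0.0284, 1.85-fold). The call was lost without any one of the WT arrays of these stages, with values between 0.73 and 1.04 (adjusted p = 0.0646 to 0.169). On 1440626_at the WT change of Hoxd13 was 0.40 ± 0.17 (95% interval 0.02 to 0.78, adjusted p = 0.128), and it was called without either KO array of 13.5 dpc (adjusted p = 0.0431). In KO limbs the Hoxd13 changes were 0.51 ± 0.24 (adjusted p = 0.169) and 0.08 ± 0.17 (adjusted p = 0.79). Without KO replicate 2 of 13.5 dpc the KO change was 0.94 on 1422239_at and 0.36 on 1440626_at, so the size of the Hoxd13 change in KO limbs depended on that single array.

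The comparison the study was built for, KO against WT limbs, gave no HoxD call. In the limma model 0 of 12 probe sets passed in the mean over the stages (0.0711% of all probe sets passed), at 11.5 dpc (0.00888%), at 12.5 dpc (0.335%) or at 13.5 dpc (0.0178%). With an unadjusted p under 0.05 there were 4 of 12 for the mean against 7.32% of all probe sets, 1 at 11.5 dpc against 1.53%, 3 at 12.5 dpc against 12.8%, and 5 at 13.5 dpc against 4.57%. The difference of the KO effect between 13.5 and 11.5 dpc also passed for 0 of 12, as for 0% of all probe sets, with 5 of 12 at an unadjusted p under 0.05 against 1.64%. The median KO minus WT difference of the 12 probe sets was 0.01 at 11.5 dpc, 0.20 at 12.5 dpc and 0.36 at 13.5 dpc, with medians of -0.001, -0.009 and 0.005 over all probe sets. Since some members share a gene, the 12 values are not independent. With 1 probe set for each of 8 genes the HoxD medians were 0.02, 0.18 and 0.05 at the successive stages, with 4 genes positive and 4 negative at 13.5 dpc, so the value of 0.36 depends on counting genes by probe set.

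At 11.5 dpc the genotypes differed by between -0.09 and 0.16 on all HoxD probe sets but that of Hoxd1. Hoxd1 was -0.43 ± 0.14 (95% interval -0.75 to -0.11, adjusted p = 1), with both KO arrays below both WT arrays, and it was the only member so placed, against 19.9% of all probe sets. The value was -0.23 without WT replicate 2 and -0.64 without WT replicate 1. None had both KO arrays above (16% of all). For Hoxd8 on 1431099_at, Hoxd9 and Hoxd10 the intervals at this stage were -0.29 to 0.38, -0.35 to 0.40 and -0.25 to 0.27.

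At 12.5 dpc both KO arrays lay above both WT arrays on 6 of 12 HoxD probe sets, against 16.9% of all probe sets, and below on 0 of 12, against 18.7%. The 6 were the probe sets shared by Hoxd3 and Hoxd4, both of Hoxd8, and those of Hoxd9 and Hoxd10. KO minus WT was 0.66 ± 0.17 on 1421537_at of Hoxd3 and Hoxd4 (95% interval 0.27 to 1.04, adjusted p = 0.14), 0.43 ± 0.15 on 1431099_at of Hoxd8 (0.09 to 0.76, adjusted p = 0.257), 0.26 ± 0.17 for Hoxd9 (-0.11 to 0.64, adjusted p = 0.581) and 0.37 ± 0.12 for Hoxd10 (0.11 to 0.63, adjusted p = 0.215). None of these passed. For Hoxd10 the value rests on KO replicate 2, since it was 0.19 without that array, whereas without KO replicate 1 it was 0.54 (adjusted p = 0.0301). KO replicate 2 of 12.5 dpc is the array with the high Hspa1a level, and it also had less cartilage and muscle signal, with mean levels of the cartilage list at 9.96 and 9.07 in KO and 10.09 and 10.18 in WT limbs, and of the skeletal muscle list at 9.95 and 8.84 in KO and 9.63 and 9.83 in WT limbs. The part of these differences in the Hoxd10 value was not tested.

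At 13.5 dpc both KO arrays lay above both WT arrays on 7 of 12 HoxD probe sets, against 14% of all probe sets, and below on 1 of 12 (Hoxd10), against 18.1%. The 7 were all of the probe sets from Hoxd1 to Hoxd9 and none from Hoxd10 to Hoxd13. KO minus WT was 0.92 ± 0.15 on 1431099_at of Hoxd8 (95% interval 0.59 to 1.25, adjusted p = 0.181), 0.53 ± 0.19 on its other probe set (0.10 to 0.96, adjusted p = 1), 0.87 ± 0.17 for Hoxd9 (0.50 to 1.25, adjusted p = 0.365), and 0.64 ± 0.17 and 0.93 ± 0.31 on the probe sets of Hoxd3 and Hoxd4 (adjusted p = 0.784 and 0.981). From Hoxd10 to Hoxd13 the differences ran the other way, at -0.13 ± 0.12 for Hoxd10, -0.11 ± 0.14 for Hoxd11, -0.22 ± 0.21 for Hoxd12, and -0.38 ± 0.24 and -0.30 ± 0.17 for Hoxd13. None passed, and the intervals of Hoxd10 to Hoxd13 all held 0 (for Hoxd11, -0.43 to 0.20).

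**Figure D3:**
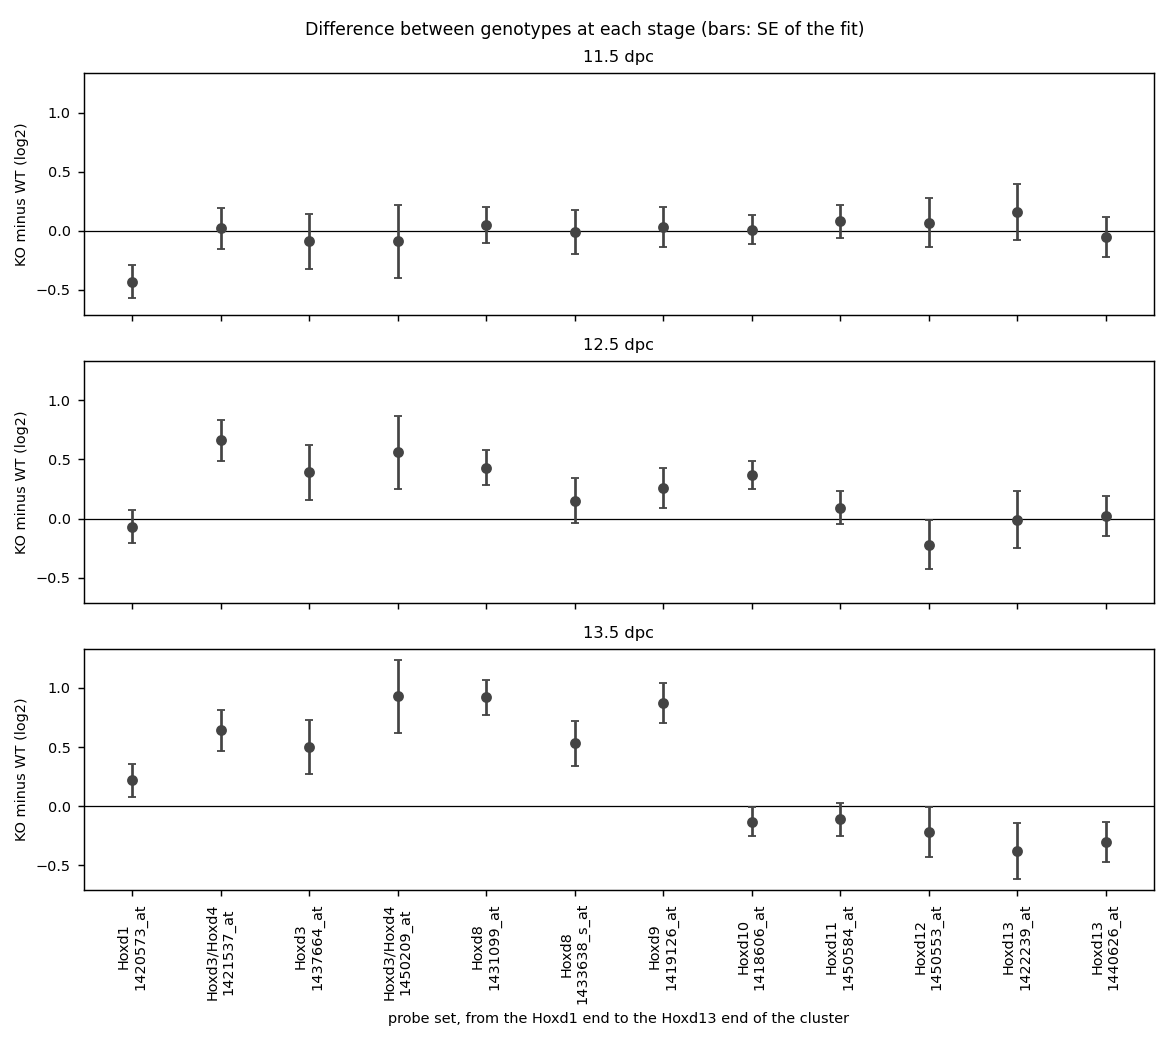
KO minus WT log2 difference (vertical axis, bars of 1 SE of the fit) of the 12 HoxD probe sets at each stage, from the Hoxd1 end to the Hoxd13 end. At 13.5 dpc the values from Hoxd1 to Hoxd9 lie above 0, between 0.22 and 0.93, and those from Hoxd10 to Hoxd13 between -0.38 and -0.11, and none passed the adjusted threshold.

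The size of the 13.5 dpc differences depended on one array. The KO replicates of that stage differed by 0.581 (root mean square over the HoxD probe sets, at most 1.03), against 0.211 to 0.277 in the other 5 groups. Replicate 2 was higher on the probe sets of Hoxd3, Hoxd4, Hoxd8 and Hoxd9 and lower on those of Hoxd11, Hoxd12 and Hoxd13. Without it, the differences were 0.67 (adjusted p = 0.9) and 0.14 for Hoxd8, 0.57 for Hoxd9 (adjusted p = 0.988), 0.48 and 0.42 for the probe sets of Hoxd3 and Hoxd4, 0.04 for Hoxd11, 0.02 for Hoxd12, and 0.05 and -0.02 for Hoxd13, so the negative sign of Hoxd11, Hoxd12 and 1 Hoxd13 probe set was not kept, with the single KO array left assumed to vary like the other groups. Without KO replicate 1 instead, the probe sets 1431099_at and 1433638_s_at of Hoxd8 gave 1.17 and 0.92 and Hoxd9 gave 1.17, and all passed (adjusted p = 0.0163, 0.0251 and 0.0183).

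The same array differed from the other KO array in markers of proximal limb, blood, muscle and cartilage. Meis1, a homeobox gene of the upper limb, lay at 7.76 and 9.46 in KO and 7.12 and 7.01 in WT limbs at 13.5 dpc. Meis2 lay at 8.77 and 9.97 in KO and 8.49 and 8.25 in WT limbs, and Shox2, a gene of the upper arm and thigh, at 10.16 and 11.66 in KO and 9.61 and 9.35 in WT limbs. Replicate 2 was high in each, and replicate 1 was nearer to WT. Of the 9 measured genes of the proximal limb and girdle list, 7 had positive and 2 negative KO minus WT differences. Irx5 was lowest in replicate 2, at 9.42 and 9.15 in KO and 9.49 and 9.63 in WT limbs. Emx2 lay at 7.31 and 8.09 in KO and 8.92 and 8.80 in WT limbs. Pax9 was alike in the KO replicates, at 7.91 and 7.96, against 7.81 and 7.67 in WT limbs. The mean level of the 9 measured genes of the proximal limb and girdle list was 8.71 and 9.54 in KO and 8.68 and 8.59 in WT limbs, and that of the 7 measured erythroid genes 8.80 and 9.59 in KO and 8.57 and 8.44 in WT limbs. Hbb-bh1, an embryonic globin, lay at 10.48 and 12.91 in KO and 9.05 and 8.40 in WT limbs. Hoxc10, a hindlimb gene, lay at 8.78 and 9.71 in KO and 7.35 and 7.35 in WT limbs. Isl1, of the same limb type list, lay at 6.19 and 7.43 in KO and 5.39 and 5.28 in WT limbs. Tbx4 and Pitx1 of that list overlapped between genotypes. Tbx4 lay at 10.11 and 10.05 in KO and 10 and 10.12 in WT limbs, and Pitx1 at 9.88 and 10.30 in KO and 10.17 and 10.06 in WT limbs. Tbx5, also of that list, lay at 9.63 and 9.93 in KO and 9.60 and 9.47 in WT limbs, with KO replicate 2 the highest. All 10 cartilage genes had negative KO minus WT differences (median -0.74, none passed), with mean levels of 9.87 and 9.39 in KO and 10.34 and 10.36 in WT limbs, lowest in KO replicate 2. Of 8 surface ectoderm genes 7 had negative differences (median -0.37, none passed), with mean levels of 9.11 and 9.23 in KO and 9.43 and 9.31 in WT limbs. At that stage 0.0178% of all probe sets passed. The skeletal muscle list had mean levels of 8.50 and 9.02 in KO and 8.39 and 8.31 in WT limbs, with 8 differences positive and 2 negative. The part of these differences in the HoxD values was not tested.

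**Figure D4:**
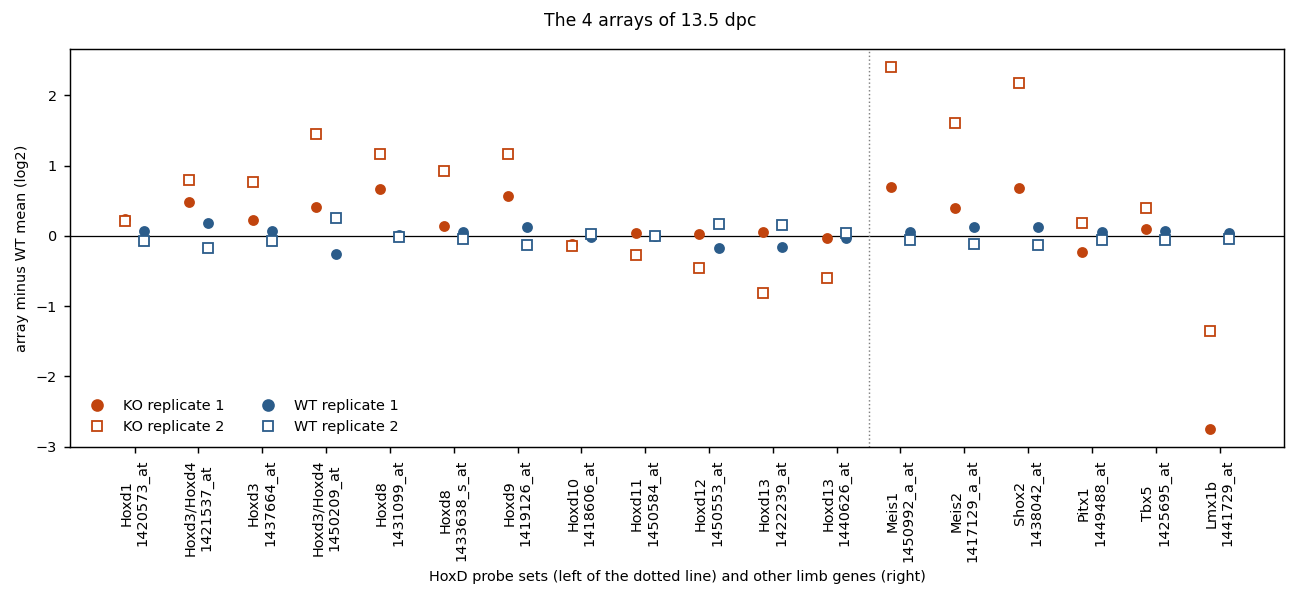
Each of the 4 arrays of 13.5 dpc minus the WT mean (log2, vertical axis), KO left of WT, for the HoxD probe sets and, right of the dotted line, for Meis1, Meis2, Shox2, Pitx1, Tbx5 and Lmx1b. KO replicate 2 (open square) is above the other arrays for Meis1, Meis2, Shox2, Hoxd8 and Hoxd9 and below them for Hoxd12 and Hoxd13.

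The HoxA cluster, whose genes act with their HoxD paralogues in the limb, was set beside HoxD. Of its 11 genes 9 were measured. At 13.5 dpc 0 passed in KO against WT limbs, against 0.0178% of all probe sets. There 8 differences were positive and 1 negative, with a median of 0.29. Hoxa11 differed by 0.70 ± 0.18 (adjusted p = 0.661), in the direction of Hoxd8 and Hoxd9, while the 95% interval of its paralogue Hoxd11 held 0 (-0.43 to 0.20). Hoxa13 differed by -0.36, in the direction of Hoxd13 in the full fit. Without KO replicate 2 of 13.5 dpc Hoxd13 gave 0.05 and -0.02 and Hoxd11 gave 0.04, so their direction rests on that array. Hoxa11 lay at 9.35 and 9.87 in KO and 9.09 and 8.72 in WT limbs at 13.5 dpc, with KO replicate 2 the highest, and Hoxa13 at 9.76 and 9.27 in KO and 9.72 and 10.03 in WT limbs, with the same array the lowest.

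Between 12.5 and 13.5 dpc HoxA genes were called in both directions. In KO limbs Hoxa13 rose by 0.75, and Hoxa9, Hoxa10 and Hoxa11 changed by -0.68, -0.84 and -1.06, 4 of 9 in all, against 17.7% of all probe sets. In WT limbs Hoxa13 rose by 0.86 (adjusted p = 0.0133), and Hoxa10 and Hoxa11 changed by -0.52 (adjusted p = 0.041) and -1.47 (adjusted p = 0.00107), 3 of 9 in all, against 19% of all probe sets. Hoxd11 did not pass in either genotype over this interval, with 0.04 in KO (95% interval -0.27 to 0.35) and 0.25 in WT limbs (-0.07 to 0.56). Between 11.5 and 12.5 dpc, Hoxa2, Hoxa4 and Hoxa7 changed by -1.10, -1.52 and -0.59 in KO limbs, and Hoxa2, Hoxa3 and Hoxa4 by -1.70, -0.77 and -1.93 in WT limbs. The shares of all probe sets called over that interval were 17.1% in KO and 16.2% in WT limbs.

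**Figure D5:**
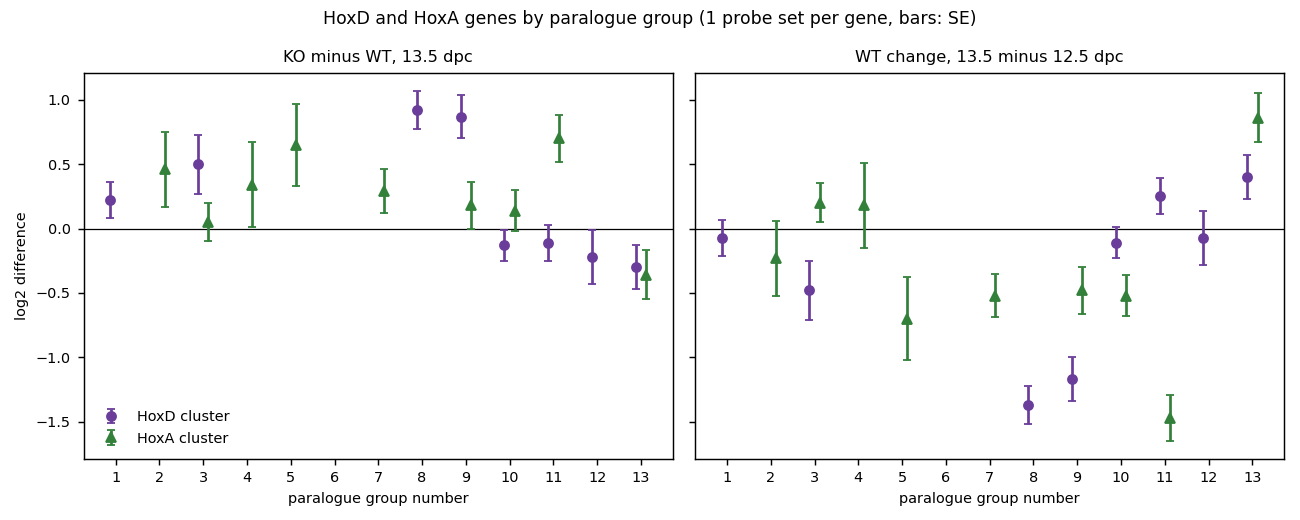
Log2 difference (vertical axis, bars of 1 SE of the fit) of HoxD genes (circles) and HoxA genes (triangles) by paralogue group number, for KO minus WT at 13.5 dpc (left) and for the WT change between 12.5 and 13.5 dpc (right). On the left Hoxa11 lies at 0.70 and Hoxd11 at -0.11, and on the right Hoxa11 lies at -1.47 and Hoxd11 at 0.25, while the genes of group 13 lie on the same side of 0 in both panels.

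Genes that flank, partner or feed into HoxD were counted in the same way. Of 10 measured neighbours of the cluster, 0 passed in KO against WT limbs at 12.5 or 13.5 dpc. Only 0.335% and 0.0178% of all probe sets passed there, so 0 in a short list says little about its genes. Lnpk, which lies on the Hoxd13 side and shares its limb enhancers, stood at 9.59 and 9.15 in KO and 9.47 and 9.42 in WT limbs at 13.5 dpc, and at 10.24 and 10.25 in KO and 10.27 and 9.96 in WT limbs at 12.5 dpc. It changed by -0.87 in KO and -0.67 in WT limbs (adjusted p = 0.0113) over that interval, after a rise of 0.96 in WT limbs between 11.5 and 12.5 dpc (adjusted p = 0.00338). Evx2, the homeobox gene next to Hoxd13, changed by 0.52 in WT limbs between 12.5 and 13.5 dpc and did not pass (adjusted p = 0.0793).

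The HOX cofactors of the PBX, MEIS and PREP families had 8 measured members. Of these 0 passed in KO against WT limbs at 13.5 dpc, against 0.0178% of all probe sets. Meis1 differed there by 1.55 (adjusted p = 0.723). Between 11.5 and 12.5 dpc in WT limbs Meis1 changed by -1.96 and Meis2 by -1.78, and both passed. They were 2 of 8 called lower, against 8.69% of all probe sets lower and 16.2% called in either direction. In KO limbs 2 of 8 were also called lower over that interval, where 17.1% of all probe sets were called in either direction. Meis1 went there from 9.99 and 9.74 to 8.32 and 7.96, and Meis2 from 10.50 and 10.19 to 9.12 and 8.33. Of the 12 Polycomb and trithorax genes, which keep Hox genes silent or active, 0 passed in KO against WT limbs at 12.5 or 13.5 dpc. The shares of all probe sets there were 0.335% and 0.0178%. Between 12.5 and 13.5 dpc 5 of 12 were lower in KO limbs, against 9.84% of all probe sets, and 2 of 12 in WT limbs (Ctcf at -0.55 and Eed at -0.38), near the 9.39% of all probe sets.

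Hedgehog signalling from the posterior limb margin maintains HoxD transcription, and HOXD proteins in turn act on Shh. The list had 9 measured members. In KO against WT limbs at 13.5 dpc 0 passed, against 0.0178% of all probe sets. Shh, the ligand, differed by 1.33 (adjusted p = 0.442) and Hhip, an inhibitor and target, by -1.35 (adjusted p = 0.267). Gli1, a target and transducer, differed by -0.51 (adjusted p = 0.476). Shh lay at 6.60 and 7.60 in KO and 5.85 and 5.68 in WT limbs there, with KO replicate 2 the highest. In WT limbs between 12.5 and 13.5 dpc 4 of 9 were higher, against 9.62% of all probe sets, and 3 lower, against 9.39%, among them Gli1 (1.62), Hhip (1.73), Shh (-1.18) and Grem1 (-1.10). Of 13 measured genes proposed as targets of HOX11 or HOX13 proteins, 0 passed in KO against WT limbs at 13.5 dpc (0.0178% of all probe sets). In WT limbs between 12.5 and 13.5 dpc 2 were higher (Bmp7, 0.82, and Ihh, 1.84) and 3 lower (among them Epha3, -0.85). The shares of all probe sets for that change were again 9.62% higher and 9.39% lower.

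Last, the genes whose profile over the 12 arrays was most like that of a member were sought among 18192 other genes. The measure was the root mean square difference of the centred log2 values, with 1 probe set per gene. It was taken for the members whose brightest own probe set had a range above 1 log2 unit. The probe sets shared by Hoxd3 and Hoxd4 and the dimmer ones of Hoxd8 and Hoxd13 were not searched, whatever their range. For Hoxd9 they were Mapk12 (0.127), Tbx3 (0.129) and Fndc3c1 (0.136), and for Hoxd8 its neighbour Hoxd9 (0.15), Tbx3 (0.17) and Kcne3 (0.199). Tbx3, a T-box gene of the limb margins, stood in both lists. For Hoxd3 they were Gm266 (0.15), Eno3 (0.166) and Enho (0.178), and for Hoxd1, a dim probe set, Mrpl55 (0.1), Myrf (0.115) and Fam185a (0.117). All arrays and both genotypes enter this measure, so genes that follow stage or the dissected part score as alike.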

How the data were processed

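Total RNA of pooled limbs was measured on 12 one-colour Affymetrix mouse arrays, 2 for each of 6 groups. The authors deposited log2 values, and RMA is the method that the submitters' processing notes name, without a version. It subtracts background, brings arrays to 1 distribution and joins the probes of a set, so dim probe sets have compressed differences. Array medians lay between 6.25 and 6.3. With 2 arrays a group, precision is limited throughout.

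Of 45101 probe sets, 64 controls were left out, and 45037 were fitted over the 12 arrays by limma 3.58.1 (R 4.3.3, lmFit, then eBayes, 1 mean per group, 6 residual and 4.46 prior degrees of freedom). Two-sided p-values were adjusted by Benjamini-Hochberg over all probe sets, with a threshold of 0.05, and the procedure was tested on simulated data. The simulated differences were larger than the HoxD differences above, and no simulated array stood apart. That test thus does not show how often differences of the HoxD sizes would pass. SE and 95% intervals come from this fit. Gene symbols came from the platform annotation. Lists use the brightest probe set of each gene. For each list the text gives counts and up to 4 members with small p in the comparison described, with markers beside the results they move with. Members and lists were chosen with earlier results of these data known. The alternatives were array weights, a trended and robust prior, repeated quantile normalization, a filter on dim probe sets, 1 probe set per gene, only the arrays compared, a replicate block and leaving out arrays. Adjacent stage changes share the 12.5 dpc arrays.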

Additional observations from a re-analysis of the deposited data

Results flagged for a closer look

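On 2 HoxD probe sets the KO arrays did not overlap the WT arrays at either of a pair of stages and lay on opposite sides of them. For Hoxd1 on 1420573_at both KO arrays were above both WT arrays at 13.5 dpc (3.87 and 3.85 in KO and 3.71 and 3.56 in WT limbs) and below them at 11.5 dpc (4.04 and 3.82 in KO and 4.16 and 4.57 in WT limbs). The KO effect at 13.5 dpc minus that at 11.5 dpc was 0.66 ± 0.20 (SE, limma adjusted p = 1), and all these levels lie near background. For Hoxd10 on 1418606_at both KO arrays were below both WT arrays at 13.5 dpc (10.63 and 10.60 in KO and 10.73 and 10.77 in WT limbs) and above them at 12.5 dpc (11.05 and 11.40 in KO and 10.85 and 10.87 in WT limbs). The KO effect at 13.5 dpc minus that at 12.5 dpc was -0.50 ± 0.17 (adjusted p = 0.425), -0.32 without KO replicate 2 of 12.5 dpc (adjusted p = 0.369), -0.48 without KO replicate 2 of 13.5 dpc (adjusted p = 0.426) and -0.30 without both arrays (adjusted p = 0.336). Neither difference passed the test. Over all probe sets, both KO arrays lay below both WT arrays on 19.9% at 11.5 dpc and above on 16.9% at 12.5 dpc. At 13.5 dpc they lay above on 14% and below on 18.1%. The share on opposite sides at 2 stages was not counted over all probe sets, so these 2 are not shown to stand out.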

How the results depend on the processing

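Of 2562 values from 132 results on single probe sets, 2497 kept their side of the threshold, 32 lost a call and 33 gained one. No called value changed sign, but 77 uncalled values from 40 results did, the largest from a full-fit difference of 0.38 in size (Hoxd13 on 1422239_at in KO against WT limbs at 13.5 dpc). KO against WT limbs gave 0 HoxD calls under every alternative but leaving out 1 array, which gave 0 to 1 for the mean over the stages, 0 to 1 at 12.5 dpc, 0 to 3 at 13.5 dpc and 0 at 11.5 dpc. The KO effect compared between stages gave 0 throughout. The KO change between 11.5 and 12.5 dpc gave 0 calls, with 1 when dim probe sets were left out or with a trended and robust prior, and 0 to 1 when 1 array was left out. The KO change between 12.5 and 13.5 dpc gave 4, with 2 under array weights, 0 from only the arrays compared and 2 to 5 when 1 array was left out. The WT change between 11.5 and 12.5 dpc gave 3, with 1 at 1 probe set per gene, 5 from only the arrays compared, 7 without both KO arrays that stand apart, and 0 to 6 when 1 array was left out. The WT change between 12.5 and 13.5 dpc gave 4, with 2 at 1 probe set per gene and 3 to 5 when 1 array was left out. The loss at 1 probe set per gene comes from testing 8 HoxD genes in place of 12 probe sets. The causes of the other shifts were not tested.

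Over all probe sets the calls moved more. Those of KO against WT limbs numbered 32 for the mean (4 to 556 over the alternatives), 4 at 11.5 dpc (0 to 14), 151 at 12.5 dpc (0 to 1353) and 8 at 13.5 dpc (0 to 57), so the adjusted p of a member can move without a change in its own values. Same-numbered KO and WT arrays had deviations that correlated at 0.3, -0.144 and -0.055 at the successive stages, so the numbers were not taken to pair samples. With the replicate block the HoxD calls were 0 for KO against WT limbs, for the differences between stages and for the KO change between 11.5 and 12.5 dpc, and 4, 3 and 4 for the KO change between 12.5 and 13.5 dpc, the WT change between 11.5 and 12.5 dpc and the WT change between 12.5 and 13.5 dpc. Limits are the 2 arrays per group and the stage confounded with scan series and dissected part, and at 13.5 dpc also with markers of limb type. Further limits are KO replicate 2 of 13.5 dpc, and levels of Hoxd1 and Hoxd3 below the median of all values.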

Other observations

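Hoxd3os1, an antisense RNA that overlaps the Hoxd3 region, was read by the probe set 1460056_at, which is no member and was chosen after its values were seen. It lay at 7.56 and 6.91 in KO and 7 and 6.73 in WT limbs at 11.5 dpc. At 12.5 dpc it lay at 6.92 and 7.87 in KO and 6.54 and 6.12 in WT limbs, and at 13.5 dpc at 5.55 and 6.81 in KO and 5.35 and 5.42 in WT limbs. KO minus WT was 0.38 at 11.5 dpc, 1.07 at 12.5 dpc (limma adjusted p = 0.287) and 0.79 at 13.5 dpc (adjusted p = 1), and none passed. Its other probe set, 1430263_at, lay between 3.59 and 3.83 on all arrays, near background, with differences of 0.02 to 0.03. On 1460056_at both KO arrays were above both WT arrays at 12.5 and 13.5 dpc, as were 16.9% and 14% of all probe sets. The same order was seen on the probe sets shared by Hoxd3 and Hoxd4, whereas the genotypes overlapped at 12.5 dpc on the probe set of Hoxd3 alone. At both stages KO replicate 2, the array that stands apart, was the higher on 1460056_at, and KO replicate 1 lay nearer to WT.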
